A study of Mus musculus with 12 samples.

Results

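The 10 genes described here, Tcf7, Lef1, Id3, Bach2, Foxo1, Klf2, Bcl6, Satb1, Myb and Klf3, encode transcription factors known from naive and memory T cells. They were chosen by name, with earlier results of these data known. Each symbol led to 1 of the 55487 gene identifiers in each of 2 tables of RNA sequencing counts. The 12 samples were CD8+ T cells of OT-1 mice, a transgenic line whose CD8 T cells share 1 T cell receptor, which recognizes a peptide of ovalbumin. The groups Female and Male, with 3 samples each, were splenic cells of either sex activated for 3 days with beads against CD3 and CD28 together with recombinant IL2. The groups WT and KD, with 3 samples each, came from another batch of male cells that were electroporated and cultured for 3 days, in which KD received Cas9 and a guide RNA against Kdm5d and WT received guide RNA without Cas9. Whether the electroporated cells were also stimulated with beads is not given in the sources used here. Kdm5d is a Y-linked gene for a histone H3 lysine demethylase. All 4 groups carry the OT-1 receptor and were grown with IL2, and the ages and numbers of mice were not given in the sources used here. Because no source states that samples came from separate mice or cultures, p-values measure the spread between samples, which may be technical.

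In a resting T cell some of these factors, such as FOXO1, KLF2, TCF1 and LEF1, hold a program of quiescence, recirculation through lymph nodes and long life. Signals from the T cell receptor and IL2 act through the kinase AKT to move FOXO1 out of the nucleus, and genes such as Klf2 and Il7r then lose one of their activators. Cells that keep TCF1, LEF1, BACH2 and MYB after activation are known to form memory cells, whereas terminal effector cells lose them and gain factors such as BLIMP1 and ID2.

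Total counts were between 78748647 and 110803318 per sample. Kdm5d was at 49.5 to 52.2 CPM in Male, 48.4 to 52.4 CPM in WT and 21.4 to 22.9 CPM in KD, and the Female libraries held at most 2 counts of it. CPM, the scale of every level below unless another is named, is the count relative to the library total, in the usual CPM unit, after TMM scaling within its table. The CD8 T cell markers Cd3d, Cd3e, Cd3g, Cd8a, Cd8b1, Trac and Lck summed to between 2110 and 2660 CPM in each sample. The markers of B cells summed to at most 9.12 CPM, those of myeloid cells to at most 7.23 CPM and those of NK cells to at most 1.68 CPM, and Ms4a1, a defining B cell marker, had 0 counts in all 12 samples. The CD4 T cell list (Cd4, Zbtb7b, Foxp3 and Cd40lg) summed to 88.7 to 90.8 CPM in Female, 54.9 to 58.7 in Male, 45.0 to 47.3 in WT and 41.0 to 43.7 in KD. Its defining marker Cd4 was at most at 0.201 CPM, and Zbtb7b made up most of the sum, with means of 85.1 CPM in Female and 51.6 in Male (log2 fold change -0.72, adjusted p 2.69e-08 in edgeR). Foxp3, a regulatory T cell gene, was called higher in Male (2.82 to 4.38 CPM) and lower in KD (2.65 to 1.46 CPM). Dendritic cell markers summed to 28.2 to 30.5 CPM in Female, 20.2 to 20.9 in Male, 11.9 to 12.7 in WT and 14.0 to 15.4 in KD, of which Batf3, which activated T cells also express, made up 24.0 to 27.1, 17.0 to 18.4, 5.58 to 6.25 and 9.17 to 10.9 CPM. The platelet genes Pf4 and Ppbp lay between 0.802 and 1.63 CPM in the Female samples and between 0 and 0.0921 CPM in all others. The part of these traces of other cells in the results was not tested.

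For each of the 10 genes, 1 window of 250 bases upstream of a RefSeq start site (build GRCm38.p6) was taken. The start nearest to that of the gene in GENCODE M21 was used. Satb1 has 5 RefSeq starts, Lef1 4, and Tcf7 and Bcl6 2 each, and their other starts were not searched. The Tcf7 window holds an ATG followed by codons without a stop up to its end. It may thus include coding sequence of a longer transcript, and the region upstream of that was not searched. The windows were searched on both strands for letters that members of these families are known to bind. The search used GTAAACA for FOXO, CTTTGA for TCF and LEF, CCACACCC for KLF, TAACGG for MYB, TGACTCA for BACH2 or AP-1, CAGGTG for E proteins and TTCCTAGAA for BCL6. None of these letter strings overlaps another in the windows found. Only 2 of the searched windows held a match. That of Bach2 held the TCF and LEF letters, as did 13.8% of 32851 windows, which cover every RefSeq start of all genes. That of Foxo1 held the MYB letters, as did 2.18% of those 32851. The windows of Bach2, Foxo1 and Klf2 are shown because the first pair hold the matches, in capitals, and Klf2 is the other gene with a male level below 40% of the female level and a single RefSeq start. They lie at chr4:32417185-32417434, chr3:52268087-52268336 and chr8:72318812-72319061, each on the plus strand, and the RefSeq start that the Bach2 window precedes is 178631 bases downstream of the first base of the gene in GENCODE M21.
Bach2: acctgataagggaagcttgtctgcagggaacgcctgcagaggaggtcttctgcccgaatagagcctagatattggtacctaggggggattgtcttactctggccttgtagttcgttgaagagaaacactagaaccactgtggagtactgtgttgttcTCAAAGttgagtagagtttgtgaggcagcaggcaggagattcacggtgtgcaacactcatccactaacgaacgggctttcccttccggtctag
Foxo1: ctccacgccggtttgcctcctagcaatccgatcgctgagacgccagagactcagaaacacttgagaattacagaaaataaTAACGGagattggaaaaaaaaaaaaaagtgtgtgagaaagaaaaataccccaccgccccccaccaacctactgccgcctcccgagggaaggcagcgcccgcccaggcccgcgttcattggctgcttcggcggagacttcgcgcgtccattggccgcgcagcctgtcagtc
Klf2: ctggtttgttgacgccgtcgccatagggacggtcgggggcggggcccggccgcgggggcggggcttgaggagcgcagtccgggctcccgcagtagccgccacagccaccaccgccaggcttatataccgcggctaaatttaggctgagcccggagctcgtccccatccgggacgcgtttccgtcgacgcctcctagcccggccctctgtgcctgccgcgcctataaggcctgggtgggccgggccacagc
Base composition set the windows apart: G and C made up 50.4% of the bases for Bach2, 56.0% for Foxo1 and 71.2% for Klf2, and the range over the 10 genes reached 81.2% for Myb. A match describes letters in the window and is no evidence of binding, and windows farther from the start were not examined.

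Whether the factors differ between activated male and female cells was asked first. The RNA of all 10 genes was lower in Male than in Female, with no overlap between the groups, and 9 passed the test. Bach2, Tcf7 and Klf2 showed the largest differences, with male means at 35.9%, 36.6% and 38.4% of the female means. Klf3 and Lef1 were at 50.7% and 55.6%, Myb at 65.8%, and Foxo1, Satb1 and Id3 between 72.4% and 80.2%. Bcl6 had the lowest level of the 10 in both sexes and did not pass the threshold.

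Over all 20208 genes tested with edgeR's quasi-likelihood test, 49.8% were called at a Benjamini-Hochberg adjusted p under 0.05 and 26.3% were called lower in Male, against 9 of the 10 factors. Calls of higher in Male made up 23.5% of genes and held no factor, since Bcl6, the one not called, was also lower in Male. Male and Female CPM ranges were separate in 58.3% of genes, with Male lower in 29.7% and higher in 28.6%, and they were separate, with Male lower, in all 10 factors. The median log2 fold change was -0.73 for the factors and 0.011 for all genes, and the median absolute value was 0.73 against 0.33. When the call also required an absolute log2 difference of 1 or more, it was made for 3 factors and for 7.28% of genes. Among genes at a level nearer that of the factors, calls were more common than over all genes. When mean log2 CPM had to reach 3, 7395 of 9689 genes were called, 3718 lower and 3677 higher in Male. In that fit Bcl6 was not tested, and the other 9 factors were called lower. In such bulk RNA, fewer cells that express a gene and less RNA per cell cannot be told apart.

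**Figure D1:**
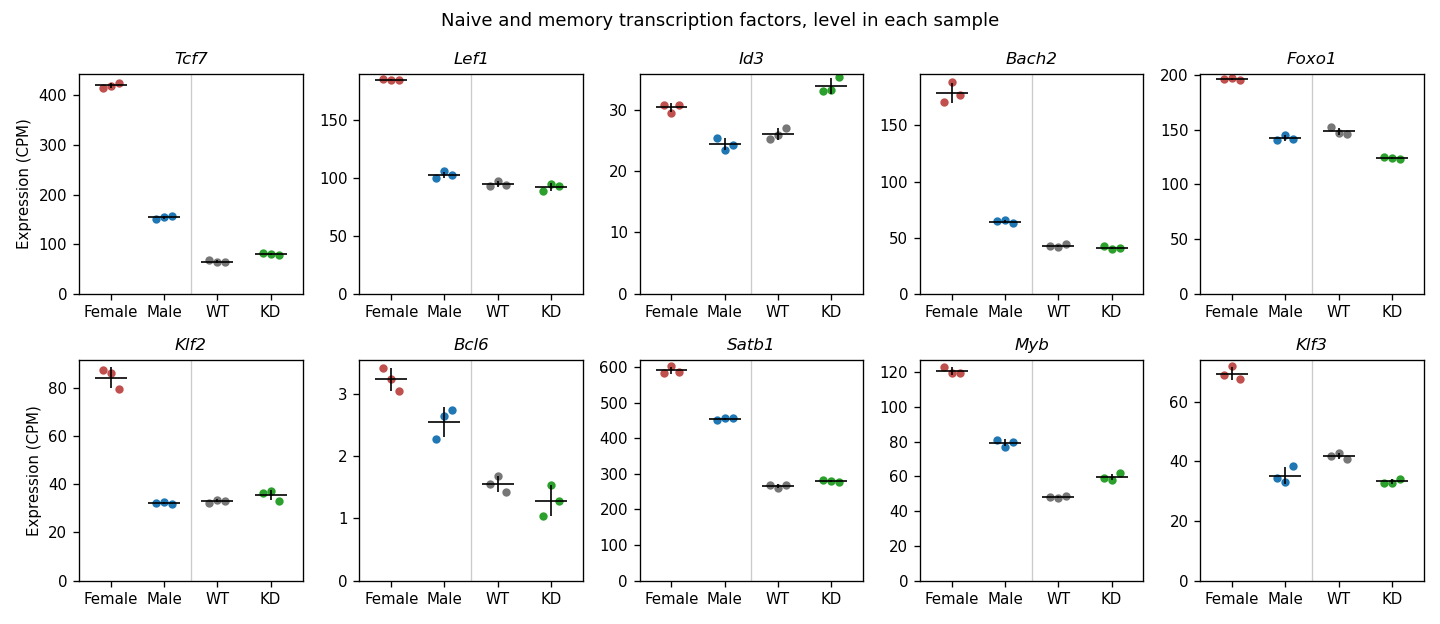
Expression in CPM (linear axis from 0) of each of the 10 factors in the 12 samples; points are samples, horizontal lines are group means and vertical lines are 1 SD (n = 3), and the grey line separates the 2 tables, which were scaled separately. The 3 Male samples lie below the 3 Female samples in every panel, whereas KD lies above WT for Tcf7, Id3, Satb1 and Myb and below it for Foxo1 and Klf3.

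Tcf7 (ENSMUSG00000000782, GRCm38 chromosome 11, 52252371 to 52283014) encodes TCF1, an HMG-box factor required for memory CD8 T cells. It stood at 415.3, 419.8 and 425.9 CPM in the Female samples and at 150.5, 154.4 and 156.6 CPM in the Male samples. The lowest female value was far above the highest male one, a gap far wider than the SD of 5.3 CPM in Female and 3.1 CPM in Male (n = 3 each). The log2 fold change was -1.45 (SE 0.022, adjusted p 2.07e-11 in edgeR), larger in size than that of 96.1% of genes. Lef1 (ENSMUSG00000027985, chromosome 3, 131110471 to 131224356), which encodes the close relative LEF1 with the same type of DNA-binding domain, was at 184.6, 183.7 and 184.5 CPM in Female. In Male it was at 99.84, 105.3 and 102.3 CPM. It fell by 0.85 on the log2 scale (SE 0.025, adjusted p 1.72e-09 in edgeR), and its 95% interval, from -0.90 to -0.79, lay outside that of Tcf7, from -1.50 to -1.40.

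Bach2 (ENSMUSG00000040270, chromosome 4, 32238804 to 32586108) encodes a leucine zipper repressor that occupies sites also used by AP-1 and restrains effector differentiation. It was at 171.2, 188.8 and 177.6 CPM in Female against 64.80, 65.35 and 62.77 CPM in Male. The spread among the female samples, with an SD of 8.90 CPM, was the largest of any factor but Satb1 in absolute terms and still small beside the difference. The log2 fold change was -1.48 (SE 0.037, adjusted p 4.86e-10 in edgeR). Myb (ENSMUSG00000019982, chromosome 10, 21124935 to 21160984), whose product supports stem-like memory cells, fell from 122.9, 119.4 and 119.3 CPM to 80.96, 77.04 and 79.96 CPM. Its log2 fold change was -0.60 (SE 0.027, adjusted p 3.28e-08 in edgeR).

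Klf2 and Foxo1 belong to the circuit that keeps resting T cells in circulation. Klf2 (ENSMUSG00000055148, chromosome 8, 72319033 to 72321656), a zinc finger activator of S1pr1, was at 87.18, 86.02 and 79.23 CPM in Female and at 32.32, 32.70 and 31.90 CPM in Male. The third female sample was the lowest of its group and still far above every male sample. The log2 fold change was -1.38 (SE 0.039, adjusted p 1.22e-09 in edgeR). Foxo1 (ENSMUSG00000044167, chromosome 3, 52268336 to 52353221), the forkhead factor upstream of Klf2 and Il7r, was at 196.1, 197.4 and 194.9 CPM in Female and 140.0, 145.0 and 141.0 CPM in Male. Its difference was smaller than that of Klf2, with a log2 fold change of -0.47 (SE 0.023, adjusted p 5.26e-08 in edgeR). AKT controls FOXO1 mainly through its place in the cell, which RNA levels do not show. Klf3 (ENSMUSG00000029178, chromosome 5, 64803388 to 64832901), a Krüppel-like repressor that recruits the corepressor CtBP, fell from 68.86, 71.90 and 67.57 CPM to 34.48, 32.92 and 38.31 CPM. Its log2 fold change was -0.98 (SE 0.052, adjusted p 1.09e-07 in edgeR).

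The remaining factors showed smaller differences. Satb1 (ENSMUSG00000023927, chromosome 17, 51736187 to 51833290), a chromatin organizer of the T cell lineage, had the most counts of the 10, at 584.3, 601.6 and 586.0 CPM in Female and 451.2, 456.0 and 457.0 CPM in Male. It fell by 0.38 on the log2 scale (SE 0.018, adjusted p 4.31e-08 in edgeR). Id3 (ENSMUSG00000007872, chromosome 4, 136143497 to 136145755), which binds E proteins and blocks their contact with DNA, was at 30.83, 29.47 and 30.80 CPM in Female and at 25.44, 23.45 and 24.20 CPM in Male. It had the smallest called difference, with a log2 fold change of -0.32 (SE 0.043, adjusted p 0.000134 in edgeR). Bcl6 (ENSMUSG00000022508, chromosome 16, 23965052 to 23988852), a zinc finger repressor known to oppose BLIMP1, lay between 3.06 and 3.42 CPM in Female and between 2.28 and 2.75 CPM in Male, on 213 to 306 counts per sample. The groups were separate but close, and the log2 fold change of -0.34 (95% interval -0.63 to -0.052) had an edgeR adjusted p of 0.051. It passed in 2 alternatives, with DESeq2 size factors (adjusted p 0.0499 in edgeR) and with limma-voom (adjusted p 0.0452).

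**Figure D2:**
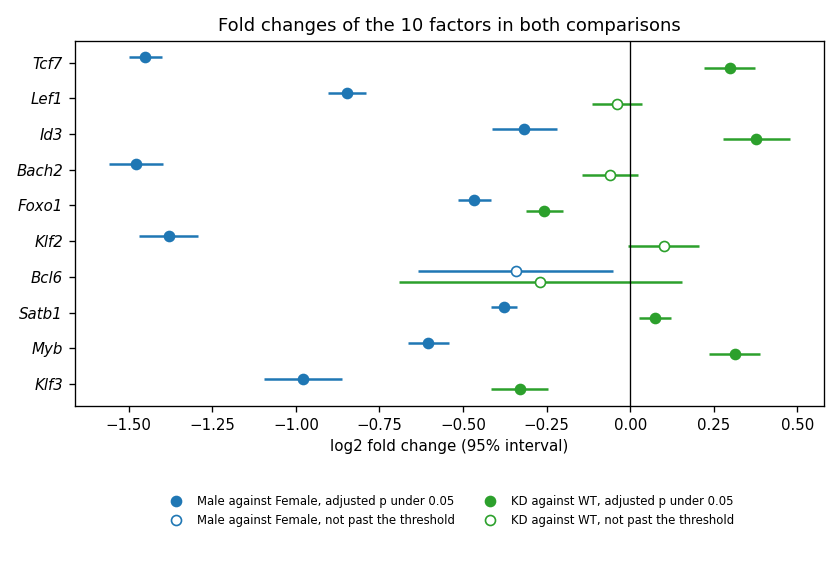
Log2 fold changes (points) with 95% intervals (lines) for the 10 factors, Male against Female in blue and KD against WT in green; filled points passed an edgeR adjusted p under 0.05 over all genes. All blue points lie at or below -0.32, and the green points lie between -0.33 and 0.38 on both sides of 0.

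Whether targeting Kdm5d in male cells moves the same factors was asked in the second table. The factors did not move as a block: Tcf7, Id3, Myb and Satb1 rose in KD, Foxo1 and Klf3 fell, and Lef1, Bach2, Klf2 and Bcl6 did not pass the test. The called differences were small, with KD means between 79.5% and 130.0% of the WT means and none reaching a log2 fold change of 1. The WT cells received no Cas9, so the presence of Cas9 and the lower Kdm5d cannot be told apart here.

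Of 20413 genes tested in this table, 35.1% were called, 16.8% higher and 18.4% lower in KD, against 6 of the 10 factors, 4 higher and 2 lower. With an absolute log2 difference of 1 or more also required, 3.96% of genes and 0 factors were called. The CPM ranges did not overlap in the 6 called factors, and in 46.8% of all genes, 23.2% with KD higher and 23.6% with KD lower. The median log2 fold change of the factors was 0.018, against 0.012 for all genes, and the median absolute value was 0.26 against 0.21.

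Id3 showed the largest rise, from 25.16, 25.91 and 27.07 CPM in WT to 33.01, 33.18 and 35.28 CPM in KD. The log2 fold change was 0.38 (SE 0.045, adjusted p 9.36e-05 in edgeR). Every KD sample was above every WT sample, and KD was the group with the highest Id3 mean of the 4. Myb rose from 47.89, 47.60 and 48.54 CPM to 59.17, 58.00 and 61.69 CPM, a log2 fold change of 0.31 (SE 0.034, adjusted p 5.41e-05 in edgeR). Tcf7 rose from 67.47, 64.08 and 63.24 CPM to 81.24, 80.54 and 77.60 CPM, a log2 fold change of 0.30 (SE 0.035, adjusted p 8.26e-05 in edgeR). The rise of Tcf7 was thus much smaller than its difference of 1.45 log2 units between the sexes. Satb1 was at 268.5, 259.2 and 268.6 CPM in WT and at 281.4, 280.9 and 276.5 CPM in KD. Its log2 fold change of 0.075 (SE 0.021, adjusted p 0.0195 in edgeR) was the smallest called. It was no longer past the threshold without WT replicate 2 (0.059, adjusted p 0.0834 in edgeR) or without KD replicate 1 (0.070, adjusted p 0.0584 in edgeR).

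Foxo1 fell from 152.0, 146.5 and 146.3 CPM in WT to 125.2, 123.8 and 123.2 CPM in KD. Its log2 fold change was -0.26 (SE 0.025, adjusted p 2.16e-05 in edgeR), and all KD samples lay below all WT samples. Klf3 fell from 41.80, 42.84 and 40.78 CPM to 32.79, 32.82 and 34.11 CPM, a log2 fold change of -0.33 (SE 0.038, adjusted p 6.95e-05 in edgeR). These were the called factors whose direction was the same in both comparisons.

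Lef1 and Bach2, which differed strongly between the sexes, had narrow intervals around 0 in KD against WT. Lef1 was at 92.87, 97.10 and 93.47 CPM in WT and 88.11, 94.53 and 93.21 CPM in KD, with a log2 fold change of -0.039 (95% interval -0.11 to 0.037, adjusted p 0.430 in edgeR). Bach2 was at 42.29, 42.04 and 43.95 CPM against 42.13, 39.97 and 40.93 CPM, with -0.061 (95% interval -0.14 to 0.023, adjusted p 0.254 in edgeR). Klf2 was at 32.29, 33.51 and 33.16 CPM in WT and 36.16, 36.94 and 32.95 CPM in KD. The third KD sample lay among the WT samples, and the log2 fold change was 0.10 (95% interval -0.0074 to 0.21, adjusted p 0.143 in edgeR). Without that sample Klf2 was called higher (0.15, adjusted p 0.0281 in edgeR). Bcl6 was between 1.43 and 1.68 CPM in WT and between 1.04 and 1.55 CPM in KD, on 83 to 171 counts. Its interval, from -0.69 to 0.15, was too wide to show a difference of the size of the other factors.

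The comparisons share no samples, so their values can be set side by side. Lower in Male and higher in KD were called together for 4 factors, Tcf7, Id3, Myb and Satb1, and for 6.82% of the 19529 genes tested in both. Lower in both were called for Foxo1 and Klf3 and for 6.62% of those genes. Higher in Male with lower in KD was called for 7.33% of genes and higher in both for 4.92%, and these held 0 factors.

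**Figure D3:**
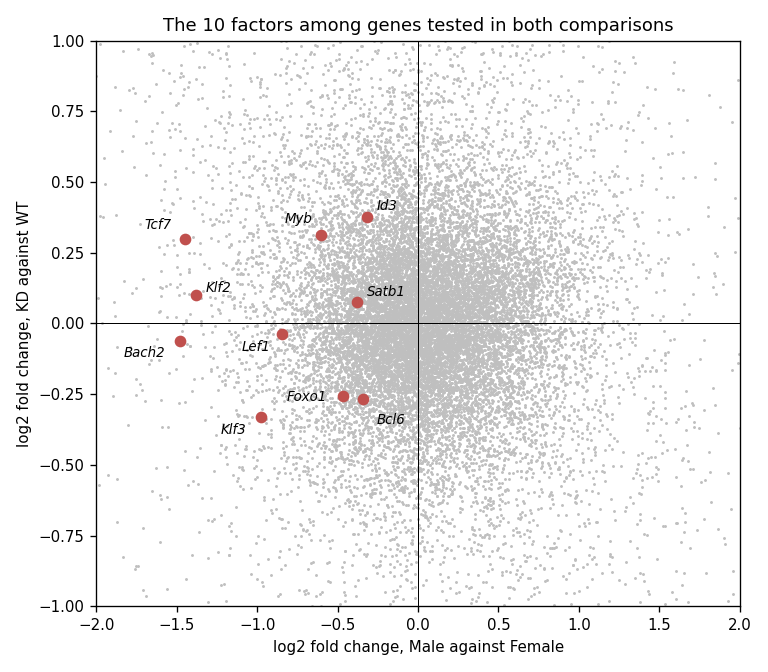
Log2 fold change in Male against Female (horizontal) and in KD against WT (vertical) for the genes tested in both comparisons (grey) and the 10 factors (red); 1171 of 19529 genes lie outside the plotted range of -2 to 2 and -1 to 1. The factors all lie to the left of 0, from -1.48 to -0.32, and spread above and below 0 on the vertical axis.

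The WT samples differed in level from the Male samples, although both are male cells with Kdm5d. As the tables were scaled separately and the batch differs, these levels are set side by side without a test. The WT mean was 42.2% of the Male mean for Tcf7, 58.4% for Satb1, 60.5% for Myb, 61.0% for Bcl6 and 66.5% for Bach2. It was 92.2% for Lef1, 102.0% for Klf2, 104.0% for Foxo1, 107.0% for Id3 and 119.0% for Klf3. Female held the highest mean of the 4 groups for every factor but Id3.

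Per kilobase of exon, scaled to the same total in every sample as TPM is, Tcf7 was the highest of the 10 in each group, at 354.0 in Female, 134.0 in Male, 62.1 in WT and 75.4 in KD. Bcl6 was the lowest in each, at 1.07, 0.874, 0.585 and 0.478. Between them, Bach2 and Id3 overlapped in Female, Klf2 and Foxo1 as well as Id3 and Satb1 in WT, and Klf2 and Id3 in KD, while the other neighbours were separate. Much of the order above the last place depends on the length used. With the longest transcript of each gene in place of all its exons, Satb1 came first in Male, WT and KD, at 141.0, 88.5 and 92.5, ahead of Tcf7 at 121.0, 54.7 and 66.7, while in Female Tcf7 stayed first, at 323.0 against 180.0.

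Relatives and partners were then examined, in lists chosen from textbook knowledge of each factor. The lists were chosen with earlier results of these data known, so their counts are descriptive. Their counts stand beside 23.5% of all genes called higher and 26.3% called lower in Male, and 16.8% called higher and 18.4% called lower in KD. These shares are over all tested genes, those of low level included. For TCF1 and LEF1, 8 of 13 tested relatives and cofactors were called lower and 1 higher in Male, with a median log2 fold change of -0.26. Axin2, a feedback gene of Wnt signalling, fell from 36.21 to 21.40 CPM (log2 fold change -0.76), and Tle1, a Groucho corepressor that binds TCF1 and LEF1, had -0.68. Tle3 was the one called higher, with 0.18. In KD against WT, 3 of 12 were called higher and 5 lower. Bcl9, a beta-catenin cofactor, had a log2 fold change of 0.53 and Tle1 of 0.34, whereas Tle4 and Tle3 had -0.46 and -0.37 (edgeR adjusted p 5.59e-05, 0.000496, 6.05e-06 and 2.32e-06). The relatives Tcf7l1 and Tcf7l2 were below 1 CPM in every sample.

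Among the partners of Id3, the E protein genes Tcf12, Tcf3 and Tcf4 were called lower in Male, with log2 fold changes of -0.64, -0.40 and -1.06. Id2, the Id gene of effector cells, moved opposite to Id3 in both tables. It was at 30.47, 28.71 and 30.42 CPM in Female and at 81.41, 75.01 and 76.77 CPM in Male, a log2 fold change of 1.38 (adjusted p 1.43e-09 in edgeR). In WT it was at 210.1, 203.0 and 214.6 CPM and in KD at 133.4, 125.1 and 135.0 CPM, a log2 fold change of -0.67 (adjusted p 2.02e-07 in edgeR). Of the 5 genes of this list, 3 were called lower and 1 higher in Male (all genes 26.3% and 23.5%), and 2 were called in KD, both lower (all genes 18.4%).

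For BACH2, 13 genes of dimer partners and AP-1 factors were tested. In Male, 6 were called higher and 2 lower (all genes 23.5% and 26.3%), among them the small Maf genes Mafk and Mafg, with log2 fold changes of 0.39 and 0.23, and Batf3 with -0.54. In KD, 7 were called lower and 2 higher (all genes 18.4% and 16.8%). Fosl2 fell from 246.6 to 138.1 CPM (log2 fold change -0.84, adjusted p 3.83e-09 in edgeR) and Jund had -0.60, whereas Batf3 and Jun had 0.76 and 0.40. For BCL6, SATB1 and MYB, 4 of 7 tested relatives and corepressors were called lower in Male (all genes 26.3%), led by Bcor with -0.53, Mybl1 with -0.51 and Ncor1 with -0.20. In KD, Mybl1, Bcor and Mybl2 were called higher, with 0.63, 0.17 and 0.13, and Ncor1 was called lower, with -0.26. The MYB relative Mybl1 thus went the same way as Myb in each table.

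Other FOXO and Krüppel-like factors were also lower in Male: 8 of 11 tested were called, each lower (all genes 26.3%), with a median of -0.58. Klf10, a gene induced by TGF-beta, fell from 153.1 to 53.87 CPM (log2 fold change -1.51, adjusted p 3.68e-11 in edgeR), Klf11 had -1.30 and Foxo3 had -0.79. In KD, 3 were called higher and 4 lower (all genes 16.8% and 18.4%). Foxo3 was at 134.3 CPM in WT and 167.6 CPM in KD (log2 fold change 0.32, adjusted p 2.64e-06 in edgeR), a direction opposite to that of Foxo1. Klf6, Klf7 and Foxo4 had -0.30, -0.22 and -0.39.

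Genes of recirculation and quiescence that have been linked to FOXO1 or KLF2 were tested as a further list. Whether these factors drive them in these cells was not tested. All 12 were called between the sexes, 10 lower and 2 higher in Male (all genes 26.3% and 23.5%), with a median of -0.75. Il7r, the receptor chain for IL7, had the largest difference, with a log2 fold change of -2.52. S1pr1, which guides exit from lymphoid organs, was at 83.24, 87.23 and 86.06 CPM in Female and at 36.49, 39.03 and 37.57 CPM in Male (log2 fold change -1.18, adjusted p 1.23e-09 in edgeR). Txnip, an inhibitor of glucose uptake, had -1.49 (adjusted p 6.85e-12 in edgeR).

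In KD, 5 of these 12 genes were called higher and 4 lower (all genes 16.8% and 18.4%), with a median of 0.071. Ccr7, the chemokine receptor for lymph node entry, rose from 25.60, 25.42 and 24.93 CPM to 57.48, 55.06 and 55.67 CPM. Its log2 fold change was 1.15 (adjusted p 8.74e-09 in edgeR). Il7r rose as well, from 22.17 to 38.49 CPM (0.80, adjusted p 2.75e-06 in edgeR). S1pr1 fell, from 61.60, 57.46 and 56.76 CPM to 22.88, 26.56 and 24.29 CPM (log2 fold change -1.25, adjusted p 1.16e-07 in edgeR). Ccr7 and S1pr1 each changed by more than 1 log2 unit, in opposite directions, beside a Klf2 difference that did not pass the test.

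**Figure D4:**
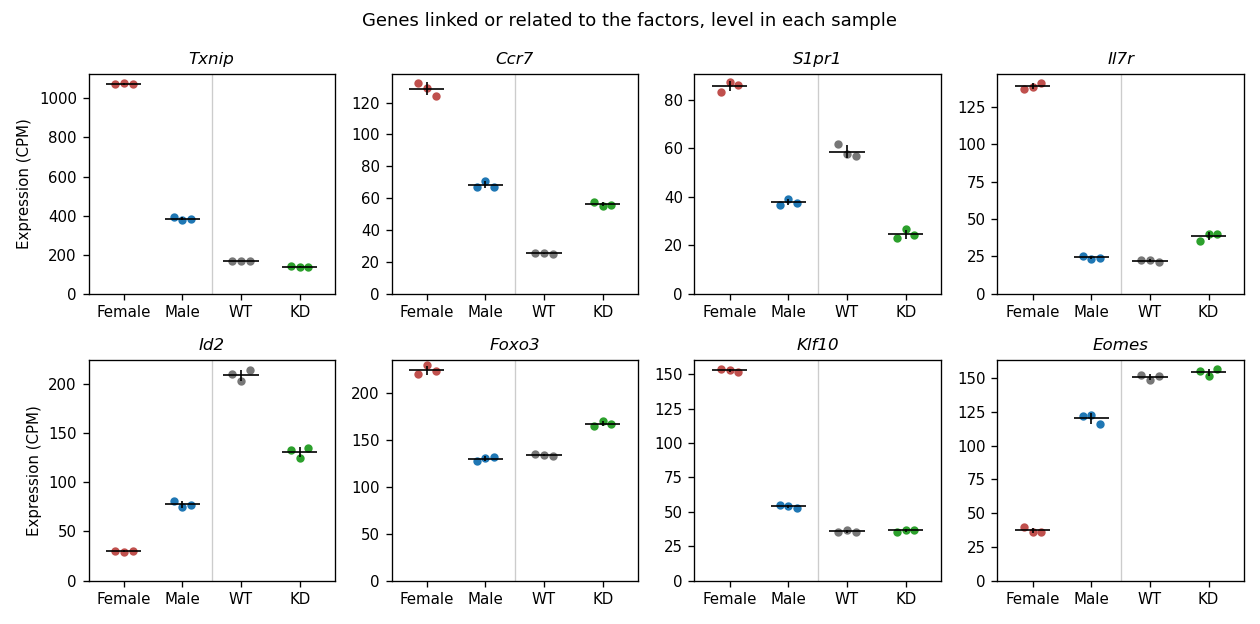
CPM (linear axis from 0) of 8 genes linked or related to the factors in the 12 samples; points are samples, horizontal lines group means, vertical lines 1 SD (n = 3), and the grey line separates the 2 tables. Ccr7 was lower in Male than in Female and higher in KD than in WT, S1pr1 was lower in Male and in KD, and Id2 had its higher level in Male and in WT.

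Of 12 other regulators of naive or resting T cells, all were called lower in Male (all genes 26.3%), from -0.10 for Elf4 to -0.59 for Btg1, with a median of -0.37. Ets1, which acts in T cell survival and identity, fell from 893.1 to 601.0 CPM, and Foxp1, a forkhead factor that holds naive cells in quiescence, from 376.4 to 281.6 CPM. In KD, 8 were called lower (all genes 18.4%), with a median of -0.12. Ikzf1, Elf4 and Btg1 led them with -0.29, -0.24 and -0.24. The 4 not called lay between -0.12 and 0.045.

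Factors of effector CD8 T cells were called in both directions in Male against Female: 3 of 10 were called higher and 6 lower (all genes 23.5% and 26.3%), with a median of -0.22. Eomes, which is shared by effector and memory cells, was at 37.34 CPM in Female and 120.1 CPM in Male (log2 fold change 1.69, adjusted p 3.47e-10 in edgeR). Nfil3 and Rbpj were the others called higher, with 0.27 and 0.14. Runx3, Irf4 and Stat4 had -0.36, -0.39 and -0.35, and Prdm1, which encodes BLIMP1, had -0.80. In KD, Irf4 and Prdm1 were called higher, with 0.80 and 0.27, and 4 were called lower (all genes 16.8% and 18.4%), led by Runx3 with -0.67, Stat4 with -0.66 and Bhlhe40 with -0.46.

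**Figure D5:**
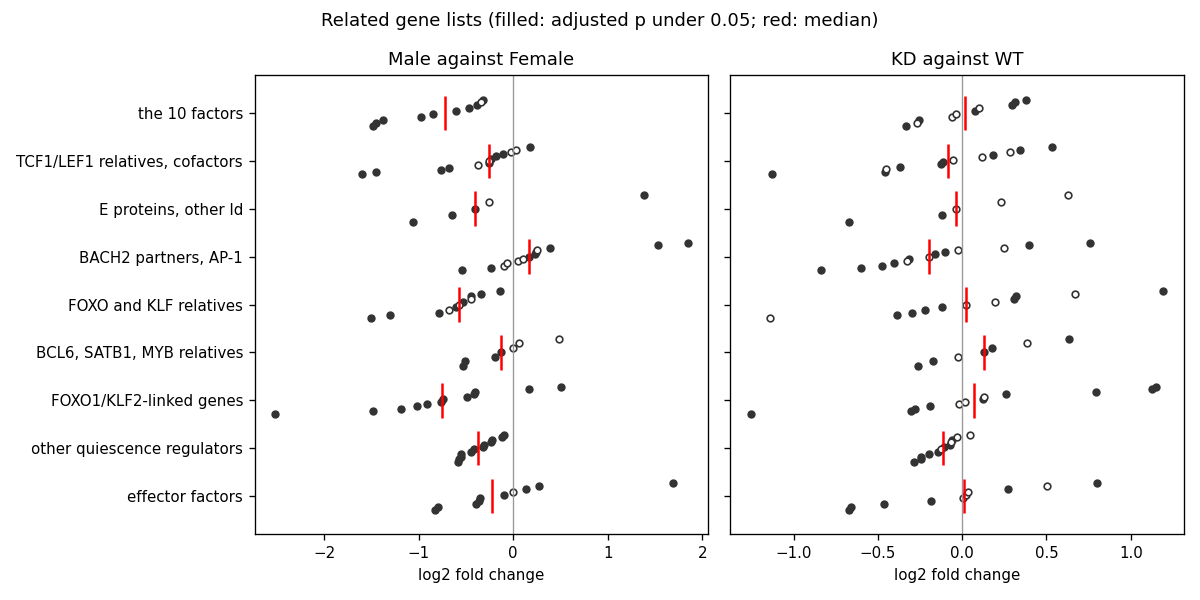
Log2 fold change of each tested gene in the 10 factors and 8 related lists, Male against Female (left) and KD against WT (right); filled points passed an edgeR adjusted p under 0.05, red lines are list medians, and the horizontal ranges of the 2 panels differ. In the left panel the factors have a median of -0.73 and the FOXO1 and KLF2-linked genes of -0.75, and in the right panel those medians are 0.018 and 0.071.

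Genes whose pattern was most like that of a factor were taken from 9239 genes whose mean log2 CPM reached 3 in both tables. The factors among those 9239 were left out. Likeness was the mean of the Pearson correlations of log2 CPM in the tables, over 6 samples each. Each table holds 2 groups, so a gene that differs clearly between them in the same direction correlates highly, and no p is given. For Tcf7 the nearest were Cnnm3, Rbl2 and Nxpe3, with mean correlations of 0.997, 0.995 and 0.994. Rbl2, the pocket protein p130 of resting cells, had means of 122.0, 86.2, 105.0 and 130.0 CPM in Female, Male, WT and KD. For Foxo1 the nearest were Abca7, Ppp1r18 and Rnf125, with 0.997, 0.996 and 0.996. Myb and Id3 shared Fam199x among their 3 nearest, with 0.998 and 0.988, and Itga4, an integrin chain, was also near Myb, with 0.997. For Klf2 the nearest was Zranb3, with 0.994, and for Klf3 it was Col4a3bp, with 0.996.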

How the data were processed

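RNA of 12 samples was sequenced from ribosome-depleted stranded libraries, per the labels' protocols. The authors deposited 2 gene tables of counts, the first with the Female and Male samples and the second with the electroporated ones. The values are whole numbers with a different total per sample and were used as raw counts. The submitters' processing notes list bcl2fastq 2.20.0, HISAT2, StringTie, DESeq2 and the build mm10, with no roles. Whether the counts were derived from StringTie coverage, in which case they and their p-values would not rest on directly counted reads, is not given in the sources used here. The annotation and the use of strand are not given in the sources used here. Symbols, positions and lengths came from GENCODE M21 (GRCm38), which matched 55227 of 55487 identifiers. The unmatched 260 held between 2.89% and 3.45% of the counts.

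Each table was fitted alone with edgeR 4.0.16 in R 4.3.3 (filterByExpr, TMM, quasi-likelihood F test, Benjamini-Hochberg adjustment over all genes tested, called under 0.05). SE was taken as |log2 fold change|/√F. The fit was tested on simulated data. The members and lists were chosen with earlier results of these data known. Named genes were the 10 factors and the 3 nearest genes per factor. Up to 3 called genes per direction, list and comparison, those with the smallest p, were also named. Tcf7l1, Tcf7l2, Cd79b and genes without a call were named after their values were seen.

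Alternatives were DESeq2 1.42.0 (size factors and test), upper-quartile factors, other filters, limma-voom (limma 3.58.1), other thresholds, 1 fit of all samples, a replicate block and leaving out each replicate. Transcript length was varied after seeing the data. Promoter windows came from RefSeq (GRCm38.p6). Antisense genes overlap 13.7% of the Lef1 exon bases (Gm43352, at most 5.73 CPM) and up to 7.78% in Bach2, Foxo1, Klf3, Myb, Bcl6 and Satb1. A same-strand gene, Gm36931, shares 0.82% of those of Satb1. At most 1.47% of the 31-base subsequences of a factor occur in transcripts of other genes. Results of some genes in the lists are not reported here by name.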

Additional observations from a re-analysis of the deposited data

How the results depend on the processing

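Over 10 settings and 6 fits that each left out 1 replicate per comparison, 318 log2 fold changes of single factors were examined. None changed sign, 299 stayed on their side of the threshold, 15 lost the call and 4 gained it. The settings that changed only a threshold reused the main log2 fold changes, so their signs could not change. When an absolute log2 difference of 1 or more was required, 3 factors and 1471 genes were called in Male against Female, and 0 factors and 808 genes in KD against WT, fewer by construction. With upper-quartile factors the balance of calls in KD against WT turned, to 4002 genes higher and 3279 lower, from 3424 and 3747. With an adjusted p under 0.01, Satb1 was not called in KD. When mean log2 CPM had to reach 3, Klf2 was called higher in KD (0.12, edgeR adjusted p 0.0425) and Bcl6 was not tested. Without 1 replicate, 9 factors were called in each fit for Male against Female, and 5 to 7 in the other table. Under a replicate block, 9 and 6 factors were called, and 9740 and 6688 genes against 10067 and 7171. It changed the call of no factor. Deviations of same-numbered samples correlated at -0.037 to 0.022, so the numbers were not treated as pairs. At most 306 counts of Bcl6 per sample limit what can be said of it.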
